A study of Mus musculus with 7 samples.

Results

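Regions that were enriched for 5-formylcytosine (5fC) in both TDG knockdown (KD) libraries of mouse J1 embryonic stem (ES) cells, and not in either siRNA control library, are described here. They were selected on the deposited domain calls: the enriched domains of the TDG KD replicates bham480 and ear003 were intersected, and a whole intersection region was retained if none of its base pairs lay in an enriched domain of the control replicates bham479 or ear001. Of 5136 TDG KD consensus regions, 730 met this condition, which is 14.2% of the regions and 1.53% of their base pairs (2.12 of 138.2 Mb). A further 1383 regions touched exactly 1 control library and 3023 touched both. These KD-only regions are part of 499635 enriched domains called in the 6 pulldown libraries of the study.

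In the assay, the formyl group of genomic 5fC was linked to biotin, the labeled fragments were captured and sequenced, and the program rseg compared each pulldown with an input library in bins of 100 bp, calling stretches enriched, background or unconfident. J1 is an ES cell line of the mouse strain 129S4/SvJae. The TDG KD and siRNA control cultures were grown without feeder cells and received 3 rounds of transfection, with a pool of siRNAs against Tdg or with a non-targeting siRNA, whereas the wild-type cultures received no siRNA and grew on irradiated fibroblasts. Each condition had 2 biological replicates, and all pulldowns were compared with 1 input library, prepared from wild-type cells. Of the control and of the KD libraries 1 each carries the name prefix bham and the other the prefix ear, a possible batch. Depth was 20.4 M (mega, as in Mb) uniquely placed reads for bham480, 28.7 M for ear003, 29.2 M for bham479, 28.8 M for ear001, 45.9 M for the wild-type library bham359_362 and 27.4 M for the wild-type library bham470. Enriched domains covered 6.33% of the spanned sequence in bham480 and 18.7% to 22.2% in the other libraries, and 504.9 Mb of bham480 were called unconfident against at most 6.28 Mb elsewhere. Accordingly bham480 had 4901 enriched domains and ear003 40121. No file used here measured expression, so neither the depletion of Tdg nor the identity of the cells was checked.

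TET dioxygenases oxidize 5-methylcytosine stepwise to 5-hydroxymethylcytosine, 5fC and 5-carboxylcytosine, almost always at CpG dinucleotides. Thymine DNA glycosylase (TDG) removes 5fC and 5-carboxylcytosine from DNA, and base excision repair then restores an unmodified cytosine. CpG islands (CGIs) are short stretches rich in CpG and G + C that cover many promoters and are mostly free of methylation in ES cells.

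The sequence of KD-only regions ranged from CpG-dense islands to CpG-poor intergenic stretches. For 6 of the widest regions, the 300 bp window with the most CpGs outside UTRs is given to show this range, on the plus strand of mm9 with each CpG in capitals. The Pdik1l window (chr4:133843177-133843476), annotated both as intron and as promoter of a kinase gene, held 46 CpGs and was enriched in both wild-type libraries. The B4galnt2 window (chr11:95775806-95776105) lay in an intronic CGI of a glycosyltransferase gene, held 24 CpGs and was likewise enriched in both. The Pold3 window (chr7:107269604-107269903), with 30 bp of coding exon and 270 bp of intron of a DNA polymerase delta subunit gene, held 33 CpGs and was enriched in bham359_362 and not in bham470. The Nr4a2 window (chr2:56964013-56964312) was coding sequence of an orphan nuclear receptor gene, held 29 CpGs and was enriched in bham359_362 and not in bham470. The Gdpd4 window (chr7:105161084-105161383) was intronic sequence of a phosphodiesterase gene, held 20 CpGs and was enriched in bham470 and not in bham359_362. The intergenic window of a region 117539 bp from Ppp4r2 (chr6:100943101-100943400) held 9 CpGs, touched no CGI and was enriched in neither.
Pdik1l: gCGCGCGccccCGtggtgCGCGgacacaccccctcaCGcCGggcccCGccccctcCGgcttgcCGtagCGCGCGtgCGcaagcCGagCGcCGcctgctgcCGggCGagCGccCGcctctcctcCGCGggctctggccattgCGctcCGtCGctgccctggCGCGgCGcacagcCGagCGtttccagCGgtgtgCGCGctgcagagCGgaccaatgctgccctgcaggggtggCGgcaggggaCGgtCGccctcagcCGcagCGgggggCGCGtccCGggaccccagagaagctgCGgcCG
B4galnt2: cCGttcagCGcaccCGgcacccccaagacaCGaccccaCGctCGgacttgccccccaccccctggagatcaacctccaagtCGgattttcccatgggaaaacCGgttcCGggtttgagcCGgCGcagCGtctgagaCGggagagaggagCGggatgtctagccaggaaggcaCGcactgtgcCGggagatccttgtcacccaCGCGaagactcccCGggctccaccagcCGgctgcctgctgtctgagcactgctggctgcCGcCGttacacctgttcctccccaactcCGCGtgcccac
Pold3: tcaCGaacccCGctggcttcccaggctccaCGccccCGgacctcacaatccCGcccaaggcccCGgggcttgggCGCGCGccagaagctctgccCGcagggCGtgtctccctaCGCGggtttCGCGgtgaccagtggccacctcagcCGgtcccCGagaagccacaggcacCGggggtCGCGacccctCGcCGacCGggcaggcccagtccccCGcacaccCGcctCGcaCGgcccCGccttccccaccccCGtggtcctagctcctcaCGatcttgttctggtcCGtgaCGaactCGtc
Nr4a2: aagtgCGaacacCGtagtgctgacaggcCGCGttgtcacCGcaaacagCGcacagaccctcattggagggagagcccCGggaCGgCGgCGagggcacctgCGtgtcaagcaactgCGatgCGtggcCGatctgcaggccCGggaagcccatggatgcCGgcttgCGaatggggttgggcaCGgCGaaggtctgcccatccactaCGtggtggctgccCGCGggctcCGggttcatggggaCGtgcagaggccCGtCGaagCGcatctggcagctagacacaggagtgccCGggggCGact
Gdpd4: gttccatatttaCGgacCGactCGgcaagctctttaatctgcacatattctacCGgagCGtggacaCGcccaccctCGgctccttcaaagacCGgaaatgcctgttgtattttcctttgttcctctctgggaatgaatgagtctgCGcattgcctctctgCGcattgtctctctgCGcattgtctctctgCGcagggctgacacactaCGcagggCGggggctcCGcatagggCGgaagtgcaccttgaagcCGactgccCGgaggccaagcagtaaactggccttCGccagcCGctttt
near Ppp4r2: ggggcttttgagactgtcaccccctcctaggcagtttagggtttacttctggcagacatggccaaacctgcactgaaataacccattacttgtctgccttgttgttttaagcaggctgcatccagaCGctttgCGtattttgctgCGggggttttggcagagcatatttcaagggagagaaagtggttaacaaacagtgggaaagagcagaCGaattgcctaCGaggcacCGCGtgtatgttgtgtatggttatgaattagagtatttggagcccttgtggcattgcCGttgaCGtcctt

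At KD-only regions the TDG KD libraries were above their library means and the controls close to theirs. The level of a library at a region is given as its excess, the deposited value (mean pulldown minus input reads per 100 bp bin) less the library mean, per M uniquely placed reads. All 730 regions had a value in every library, and none was removed for a low value. The median excess was 0.0197 in bham480 and 0.0250 in ear003, against -0.00156 in bham479 and -0.00112 in ear001. The mean of the library medians was 0.0224 ± 0.00378 (SD, n = 2) for TDG KD and -0.00134 ± 0.000309 (SD, n = 2) for the control. Within the bham prefix the median difference of TDG KD and control was 0.0219, and within the ear prefix it was 0.0264. The lower TDG KD library exceeded the higher control library at 729 of 730 regions, compared with 58.7% of all TDG KD consensus regions. These calls chose the regions, so no test was made of this contrast.

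The scale of these levels rests on the library mean, which was -0.277 reads per bin in bham480 and between 0.0387 and 0.793 in the others. On the deposited value itself, without taking off the mean, the lower TDG KD library exceeded the higher control library at 484 regions, and per M reads at 526. An enriched domain never carried a value below 0, and 333 enriched domains of bham480 (6.79%) were listed at exactly 0, against at most 35 in any other library. The bham480 value of 46 KD-only regions (6.30%) included such a domain, so the excess of 0.0136 at some of them is the library mean alone. Without these domains 684 KD-only regions remained. Taking off the library mean adds the same 0.0136 to the bham480 excess at every KD-only region. The median deposited value at KD-only regions was 0.125 in bham480 and 0.799 in ear003, against 0.0579 in bham479 and 0.0170 in ear001. The value of a control library at a region is an average over the domain it lies in, whose median width at the centre of a KD-only region was 73450 bp in bham479 and 227950 bp in ear001, compared with 5600 bp in bham480 and 4300 bp in ear003. Whether the control held a short rise inside those domains cannot be read from the deposited values.

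**Figure D1:**
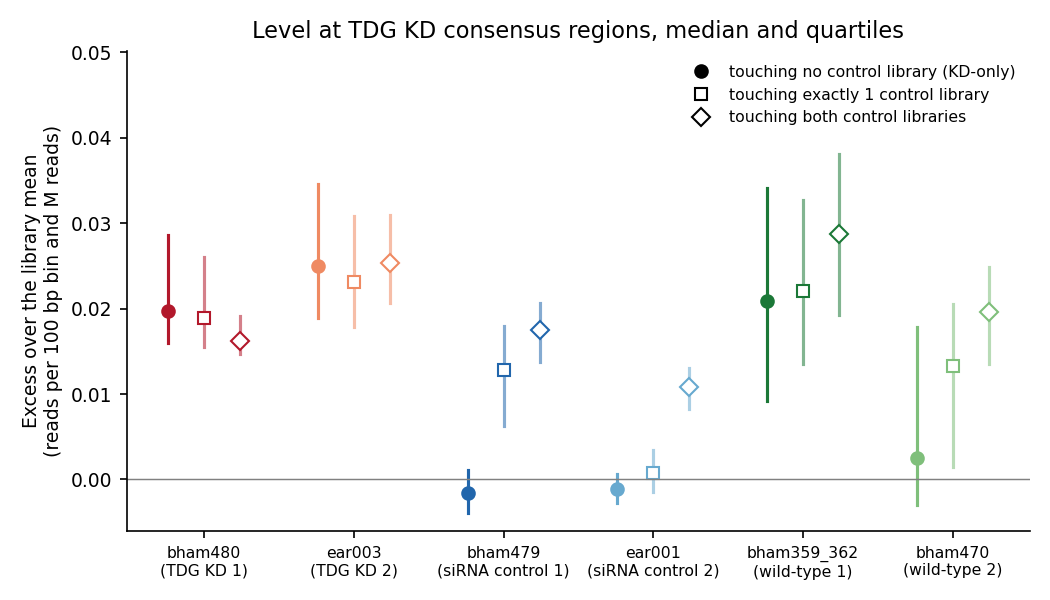
Excess over the library mean (reads per 100 bp bin and M uniquely placed reads) of the 6 pulldown libraries at TDG KD consensus regions that touch no control library (filled circles, 730), exactly 1 (squares, 1383) or both (diamonds, 3023); points are medians over regions and bars the quartiles. The control medians at KD-only regions are -0.00156 and -0.00112, and the TDG KD medians 0.0197 and 0.0250.

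KD-only regions were narrow, which the selection favors, since a short region meets a control domain less easily. An intersection of replicates is also no wider than either of its domains. Consensus regions touching exactly 1 control library had a median width of 3600 bp. The width of KD-only regions ranged from 100 to 17800 bp with a median of 2300 bp and quartiles of 1200 and 3875 bp. Only 12.2% of the enriched domains of bham479 and 2.99% of those of ear001 were as narrow as this median or narrower, against 22.6% in bham480, 21.4% in ear003, 14.9% in bham470 and 88.0% in bham359_362. The regions came from 692 distinct bham480 domains and 719 distinct ear003 domains. The parent domain reached a control domain elsewhere along its length for 145 regions in bham480 and for 83 in ear003, so these regions are the part of a wider domain that both TDG KD libraries shared.

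The nearest control domain lay at a median distance of 11150 bp, with quartiles of 4600 and 30100 bp. It was less than 5 kb away for 195 regions (26.7%), less than 1000 bp away for 32, and more than 100 kb away for 55. Just inside the threshold, 3 regions abutted a control domain, namely 8300 bp at Pxdn (chr12:30617985-30626284), 1500 bp in an intron of Nktr (chr9:121653475-121654974) and 600 bp of intergenic sequence 127612 bp from Snx19 (chr9:30401924-30402523). Just outside it, 5800 bp at Ovol2 (chr2:144157384-144163183), 5800 bp in Frmd4b (chr6:97472851-97478650) and 4900 bp near Zadh2 (chr18:84272272-84277171) were each removed for 100 bp of control domain. The excess of the Pxdn region was 0.0162 and 0.0300 in the TDG KD libraries against 0.00380 and 0.000400 in the controls, and that of the removed Frmd4b region, which bham480 lists at 0, was 0.0136 and 0.0158 against 0.00180 and 0.00211. On the excess scale, control levels were thus below TDG KD levels in both the Pxdn and the Frmd4b region. The calls of these same libraries set the threshold, so this is a description only. At Frmd4b the bham480 excess comes from taking off the library mean alone.

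**Figure D2:**
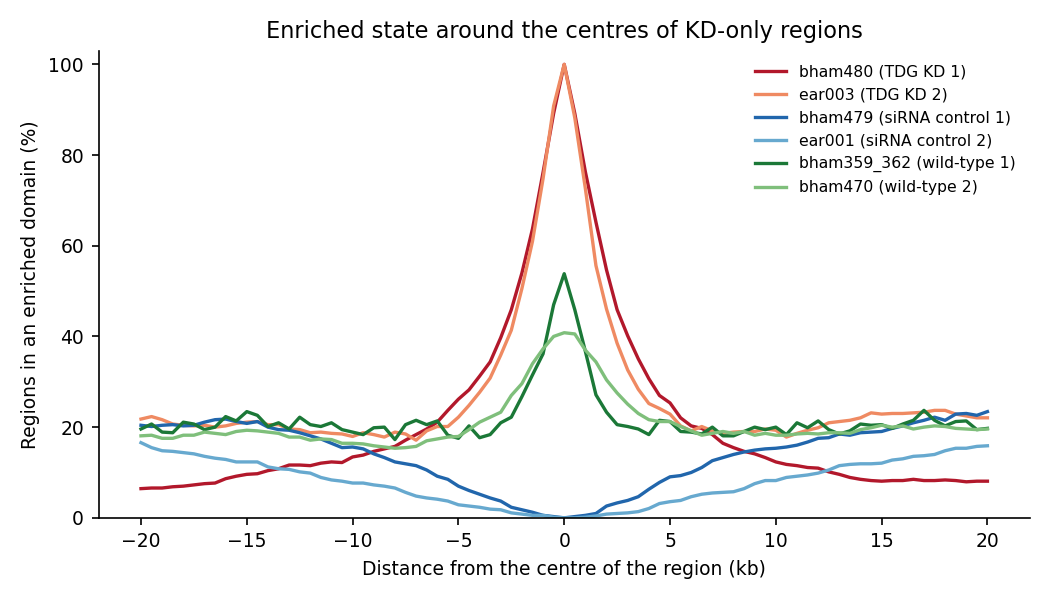
At each distance from the centre (x axis, kb), the percentage of the 730 KD-only regions that are in an enriched domain there, for each library. Both TDG KD libraries reach 100% and both controls 0% at the centre, as the selection requires, while the wild-type libraries, which it did not use, also peak there.

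The wild-type libraries were not used in the selection. Their values were computed against the same input library as those of TDG KD and control, and its part in the levels at these regions was not tested. At the KD-only regions 52.3% were at least 50% enriched in bham359_362 and 40.3% in bham470, where 66.2% and 71.6% of all TDG KD consensus regions were. Sequence beside the regions was lower in both: of flanks with the same width and 1 width away (n = 1459), 15.7% were at least 50% enriched in bham359_362 and 18.9% in bham470. By base pairs, 45.9% and 45.4% of the KD-only regions were enriched in the wild-type libraries, compared with 19.4% and 18.1% of the flanks and 18.7% and 20.8% of the spanned sequence. The median excess was 0.0209 in bham359_362 and 0.00249 in bham470 at the regions, against -0.000874 and -0.000712 in the flanks. Both wild-type libraries therefore exceeded the flanks. At least 1 enriched base was held by 87.8% of the regions in bham359_362 and 45.5% in bham470. Among the 4406 consensus regions that touched a control domain these shares were higher, at 97.2% and 83.0%.

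The enriched share of KD-only regions was below that of the 4406 consensus regions that touched a control domain in both wild-type libraries. The difference was -16.2 percentage points in bham359_362 (52.3% against 68.5%) and -36.5 in bham470 (40.3% against 76.8%), a mean of -26.3 ± 14.3 (SD, n = 2). The exact two-sided sign-flip permutation test over the wild-type libraries gave p = 0.5, the smallest value that 2 libraries allow, so the design cannot pass a threshold of 0.05. In median excess the difference was -0.00570 in bham359_362 and -0.0155 in bham470, a mean of -0.0106 ± 0.00691 (SD, n = 2; exact sign-flip permutation p = 0.5). Against the regions that touched exactly 1 control library, the difference in share narrowed to -4.58 points in bham359_362 and -18.9 in bham470.

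Width differed between these sets and moved with the comparison. Among regions of up to 1000 bp, 61.5% of 161 KD-only regions were at least 50% enriched in bham359_362, compared with 65.4% of those touching 1 control library and 65.5% of those touching both. At 1100 to 2000 bp the shares in bham359_362 were 63.4%, 70.6% and 63.3%. Narrow regions of the 3 classes were therefore close to each other in this library. Above 4000 bp they were 35.7%, 48.9% and 75.5%. In bham470 the KD-only share was lowest at each width, from 34.2% against 56.9% and 62.2% at up to 1000 bp to 53.0% against 64.7% and 88.7% above 4000 bp. When the whole length had to be enriched, the difference from the regions touching any control domain was 7.71 points in bham359_362 and -14.0 in bham470, with opposite signs.

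**Figure D3:**
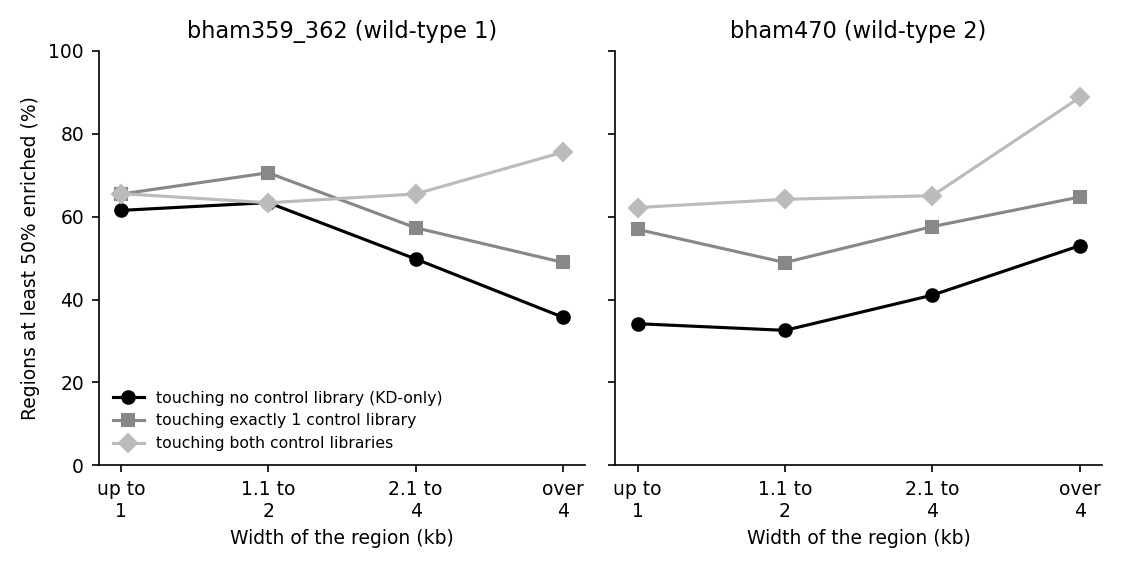
Percentage of TDG KD consensus regions with at least 50% of their length in enriched domains of each wild-type library (panels), by width class (x axis, kb) and by the number of control libraries touched (circles none, squares exactly 1, diamonds both). Up to 2 kb the 3 classes lie between 61.5% and 70.6% in bham359_362, whereas KD-only regions are lowest at every width in bham470.

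The wild-type libraries picked out different KD-only regions. In all, 187 (25.6%) were at least 50% enriched in both, 195 in bham359_362 alone, 107 in bham470 alone and 241 (33.0%) in neither, and 70 (9.59%) had no enriched base in either. The share enriched in both was 54.4% over all consensus regions. The share enriched in neither was highest for KD-only regions in every width class. At up to 1000 bp it was 30.4%, against 17.6% for regions touching exactly 1 control library and 18.5% for those touching both. Above 4000 bp the shares were 35.1%, 23.3% and 8.39%. In bham359_362, 230 of the KD-only regions held 2 or more separate domains and as many as 11, while in bham470 no region held more than 1. Regions enriched in both had a median of 12.2 CpGs per kb, those in bham359_362 alone 13.3, those in bham470 alone 10.7 and those in neither 10.0. A CGI was touched by 20.3%, 20.0%, 13.1% and 7.47% of these regions, respectively. The median distance to the nearest TSS of a protein-coding gene was 19008, 18852, 32703 and 52841 bp in the same order, so that regions enriched in neither were the most distant from promoters.

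KD-only regions were CpG-rich for their surroundings. The median was 11.1 CpGs per kb (quartiles 8.26 and 17.1) and 46.7% GC, compared with 8.40 CpGs per kb and 42.9% GC in the flanks and 8.34 and 41.8% over the spanned sequence. The CpG density was not particular to them: it was 11.3 per kb in regions touching exactly 1 control library and 12.8 in those touching both. Pooled over all base pairs, the density was 15.6 per kb in KD-only regions, 14.3 in those touching exactly 1 control library and 14.5 in those touching both. The neighborhood differed mainly from that of regions touching both. The 100 kb around the centre had a median of 43.1% GC and 7 protein-coding gene starts per Mb at KD-only regions, 43.9% and 7 at regions touching 1 control library, and 46.8% and 12 at regions touching both.

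By base pairs, the KD-only regions lay in CGIs, 5′ UTRs and promoters more than the other consensus regions did, and in 3′ UTRs less. CGIs made up 4.30% of their sequence, 7.75-fold the share in the spanned sequence, against 5.71-fold for regions touching exactly 1 control library and 3.05-fold for those touching both. For 5′ UTRs the values were 6.18-fold, 4.21-fold and 2.92-fold, and for promoters (1 kb upstream of a TSS) 4.05-fold, 3.02-fold and 2.65-fold. Coding exons were at 2.68-fold, 2.34-fold and 3.04-fold, and introns at 1.14-fold, 1.11-fold and 1.48-fold. 3′ UTRs were at 0.861-fold, 1.47-fold and 2.53-fold, the class in which the sets fell on either side of 1. A narrow region that covers an island gives it a larger share of its base pairs than a wide one. Counted by regions, 109 KD-only regions (14.9%) touched a CGI, against 27.9% of all consensus regions. Within 1 kb of a TSS lay 133 (18.2%), against 31.5%. Regions touching exactly 1 control library were close to the KD-only regions, at 15.5% for CGIs and 17.8% for a TSS. Those touching both were at 36.6% and 41.0%. In all 391 (53.6%) touched a gene body, against 62.9% of all consensus regions. More than 50 kb from any TSS were 276 (37.8%), against 31.5% of all consensus regions and 39.8% of those touching exactly 1 control library. These are descriptions, with no test between the sets.

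**Figure D4:**
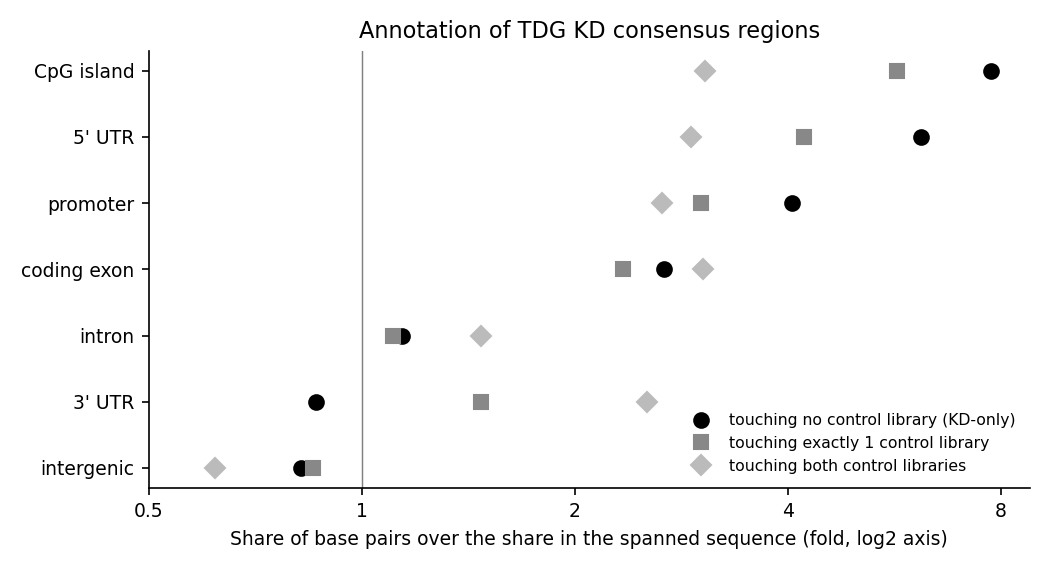
Share of base pairs in each annotation class (protein-coding genes of GENCODE M1; CGIs called from the mm9 sequence) divided by the share in the spanned sequence, on a log2 axis, for TDG KD consensus regions that touch no control library (circles), exactly 1 (squares) or both (diamonds). KD-only regions are highest for CGIs (7.75-fold), 5′ UTRs and promoters, and are below 1 for 3′ UTRs (0.861-fold).

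Of the 109 KD-only regions that touched a CGI, 94 (86.2%) lay within 1 kb of a TSS, 5 elsewhere in a gene body and 10 in intergenic sequence. The share within 1 kb of a TSS was similar, at 87.8%, over all consensus regions with a CGI. The median excess of the 109 regions was 0.0210 in bham480 and 0.0315 in ear003, against -0.00205 and -0.00132 in the controls, and 0.0292 and 0.0138 in the wild-type libraries bham359_362 and bham470. The corresponding values of the 621 regions without a CGI were 0.0196 and 0.0239, -0.00144 and -0.00106, and 0.0198 and 0.00219. In bham359_362 70.6% of the regions with a CGI and 49.1% of those without were at least 50% enriched, and in bham470 47.7% and 39.0%. KD-only regions with a CGI were thus higher in wild type than KD-only regions without, in both libraries. Of all consensus regions with a CGI, 85.2% were at least 50% enriched in bham359_362 and 88.4% in bham470. Of the regions with a CGI that touched exactly 1 control library, 68.8% and 69.3% were.

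The named regions with a CGI included promoters of adhesion and receptor genes. The region farthest from any control domain, 3223900 bp away, covered the TSS of Pcdh10, a protocadherin of cell adhesion (chr3:45180771-45186170), and 2732 of its 5400 bp were CGI. Its excess was 0.0448 in bham480 and 0.0399 in ear003, -0.00837 in bham479 and -0.00468 in ear001, and 0.0287 and 0.0298 in bham359_362 and bham470. Both TDG KD libraries and both wild-type libraries were above both controls, and 66.7% and 100% of the region were enriched in wild type. The selection favors TDG KD over control, and this region was named for its distance from control domains. Its control values are averages over the domains that hold the region, so the contrast with the controls is a description only.

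At Ncam1, which encodes the neural cell adhesion molecule, the region (chr9:49604624-49607123) covered the TSS and 1730 bp of CGI. The excess was 0.0255 and 0.0454 in the TDG KD libraries, -0.00328 and -0.00180 in the controls, and 0.0505 and 0.0528 in wild type. The wild-type libraries were the highest of the 6 here.

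At a second group of islands the wild-type libraries differed. The region at Gpr37, an orphan G protein-coupled receptor gene (chr6:25638001-25640300), was 1884200 bp from any control domain, with 0.0246 and 0.0502 in TDG KD, -0.00651 and -0.00284 in the controls, 0.0313 in bham359_362 and -0.00858 in bham470. Here bham359_362 was at the TDG KD level and bham470 at or below the control level. The Nr4a2 region (chr2:56960053-56968552), whose sequence is given above, covered 1329 bp of CGI and showed 0.0179 and 0.0274 in TDG KD, 0.000906 and -0.00441 in the controls, 0.0212 in bham359_362 and 0.00121 in bham470. The wild-type value in bham470 is an average over wide domains (median 33750 bp at KD-only regions, against 2000 bp in bham359_362).

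The imprinted Gnas locus, which encodes a G protein alpha subunit, held 2 KD-only regions. One (chr2:174153084-174156383) was CGI over its whole 3300 bp, with 92.7 CpGs per kb, and covered a TSS. The excess was 0.0157 and 0.0305 in TDG KD, -0.00612 and -0.000766 in the controls, 0.0259 in bham359_362 and 0.00245 in bham470. The other (chr2:174140684-174143583) was intronic, had 10.0 CpGs per kb, and shared its bham480, control and bham470 values with the first, since 1 domain of each of those libraries spanned both. A 300 bp intronic region 949 bp from a TSS of Snrpn (chr7:67148794-67149093), also imprinted, had 0.0689 and 0.113 in TDG KD, -0.00898 and -0.00370 in the controls, 0.0408 in bham359_362 and -0.00920 in bham470. A region in intergenic sequence 53647 bp from the imprinted gene Rtl1 (chr12:110763857-110773756) was enriched over 79.8% and 100% of its length in wild type and had the highest control levels among the regions with a CGI that are named here, 0.00740 and 0.00624, beneath 0.0139 and 0.0332 in TDG KD.

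**Figure D5:**
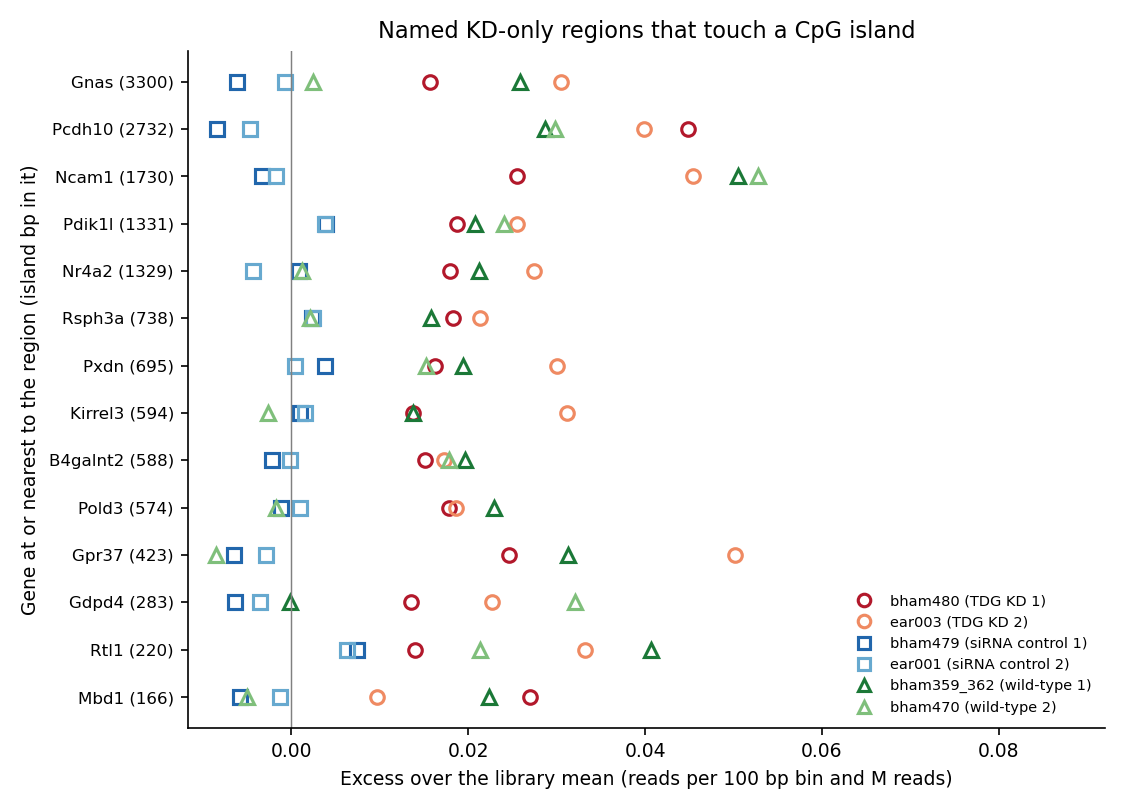
Excess over the library mean (reads per 100 bp bin and M reads) in each of the 6 libraries (circles TDG KD, squares siRNA control, triangles wild-type) for 14 named KD-only regions that touch a CGI, ordered by the island base pairs inside the region (in parentheses). At each one both TDG KD libraries lie to the right of both controls, which the selection favors, and the wild-type libraries lie together at Pcdh10 and Ncam1 and far apart at Gpr37 and Gdpd4.

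Of the 10 widest KD-only regions, 8 touched no CGI. The widest, 17800 bp of intergenic sequence 288878 bp from Setd4 (chr16:93277024-93294823), had 10.4 CpGs per kb and an excess of 0.0136 and 0.0154 in TDG KD, 0.00115 and 0.00223 in the controls, and 0.0147 and 0.0142 in wild type. The next, 16700 bp in an intron of the rhomboid protease gene Rhbdd1 (chr1:82392639-82409338), had 0.0136 and 0.0139 in TDG KD and was low in wild type, at 0.00372 and 0.000827. Both, and the 10600 bp region in Gdpd4, rest on a bham480 domain listed at 0. The other 2, at B4galnt2 (chr11:95765526-95778025) and Pold3 (chr7:107268794-107280693), touched a CGI. B4galnt2 showed 0.0151 and 0.0172 in TDG KD, -0.00223 and -0.000164 in the controls, and 0.0196 and 0.0178 in wild type, whereas Pold3 showed 0.0178 and 0.0186, -0.00123 and 0.000949, and then 0.0229 in bham359_362 but -0.00179 in bham470. In bham470, B4galnt2 was near its TDG KD level and Pold3 near its control level.

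Among wide regions at a TSS, Lass3, a ceramide synthase gene (chr7:73878294-73889493), was enriched over 43.8% and 94.6% of the region in the wild-type libraries, and Cpa4, a carboxypeptidase gene (chr6:30518101-30529000), over 37.6% and 96.3%. The kinase gene Pdik1l (chr4:133840067-133850766) had 0.0187 and 0.0255 in TDG KD, 0.00393 and 0.00378 in the controls, and 0.0208 and 0.0241 in wild type. Unlike these, the mostly intronic Gdpd4 region (chr7:105154494-105165093) lay 48163 bp from a TSS. There the wild-type libraries went the other way from Gpr37, with -0.000150 in bham359_362 and 0.0320 in bham470, beside 0.0136 and 0.0227 in TDG KD.

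The 5 widest regions without a wild-type enriched base were intergenic and touched no CGI. They lay 152766 bp from Tns1 (chr1:73799039-73804038, 5000 bp), 124942 bp from Ptprt (chr2:161218184-161222783, 4600 bp), 206198 bp from Daam1 (chr12:72721367-72725866, 4500 bp), 196035 bp from Nup35 (chr2:80695099-80699198, 4100 bp) and 17459 bp from Fcrl5 (chr3:87218748-87222347, 3600 bp). The region near Nup35 had an excess of 0.0213 and 0.0330 in TDG KD, -0.00676 and -0.00455 in the controls, and -0.00971 and -0.00763 in wild type, below the library mean in all 4 libraries without Tdg siRNA. That near Ptprt had 0.0227 and 0.0140 in TDG KD, and between -0.00802 and 0.000560 in the other 4.

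The levels are also given by distance from control domains. The selection used these control domains and the TDG KD and control libraries, so their levels by distance are a description from which nothing is read. The 195 regions less than 5 kb from a control domain had a median excess of 0.0184 in bham480 and 0.0240 in ear003, and the 55 regions more than 100 kb away 0.0263 and 0.0329. In the controls the medians were -0.000989 and -0.000294 near and -0.00550 and -0.00345 far. For the wild-type libraries the distance groups were under 5 kb, 5 to 20 kb, 20 to 100 kb and over 100 kb. Their median excess was 0.0202, 0.0224, 0.0198 and 0.0243 in bham359_362, and 0.00356, 0.00568, -0.000317 and -0.00592 in bham470. The shares of regions at least 50% enriched were 49.2%, 56.6%, 47.7% and 58.2% in bham359_362. In bham470 they were 41.5%, 47.0%, 33.2% and 27.3%. Neither library changed steadily with distance. The far regions also lay in sequence of lower GC (40.0% over 100 kb, against 44.0%) with fewer genes (4 starts per Mb against 8), and 18.2% of them touched a CGI against 12.8%. The part of the GC content of the neighborhood in these levels was not tested. Besides Pcdh10 and Gpr37, the regions farthest out were 7700 bp near the olfactory receptor gene Olfr1120 (2098400 bp from a control domain), 200 bp near Alcam (1952500 bp) and 400 bp in Sorcs1 (1528100 bp).

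KD-only regions were spread over the autosomes, at 0.177 per Mb on chromosome 8 to 0.458 per Mb on chromosome 12. Chromosome 8 held the most TDG KD consensus regions, 639, of which 22 (3.44%) were KD-only, compared with 14.2% over all chromosomes. Chromosome X held 3 of 6 consensus regions, and chromosome Y had no consensus region.

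In all, 384 protein-coding genes held a KD-only region in their body, 30 of them 2 or more, and Lass3 held 3. These genes were long, with a median of 80.9 kb against 15.4 kb for all 22225 protein-coding genes, and 44.8% of them exceeded 100 kb against 10.7%. A longer gene has more room for a region, and gene length was not corrected for. Within 5 kb of the gene body, 428 genes (1.93%) had a KD-only region.

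Of the 307 genes in the lists, 13 had a KD-only region within 5 kb. Of 58 axon guidance and neuron projection genes 4 had a KD-only region within 5 kb (6.90%): Ncam1, Dscam, Sema5a and Efna5. Neural pathways were chosen by the study on these samples, so this list is not independent evidence of its direction. Of 36 synaptic adhesion genes 2 did, of 63 developmental transcription factor genes 4 (with Gata3, Foxd3 and Lhx8 among them), of 37 imprinted genes 2 (Gnas and Snrpn) and of 14 DNA methylation genes 1 (Mbd1, which encodes a methyl-CpG binding protein). No KD-only region lay within 5 kb of the 24 DNA demethylation and base excision repair genes, the 24 pluripotency genes, the 26 germline genes silenced by methylation or the 25 fibroblast genes, where 29.2%, 12.5%, 19.2% and 20.0% of them had a TDG KD consensus region, beside 21.2% of all genes. A consensus region lay within 5 kb of 39.7% of the axon guidance and neuron projection genes, 41.3% of the developmental transcription factor genes, 19.4% of the synaptic adhesion genes, 27.0% of the imprinted genes and 28.6% of the DNA methylation genes. At the background of 1.93% of all genes, lists of this size would hold none or 1, so the empty lists lie near the background.

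Several of these regions were short intronic or intergenic stretches rather than promoters. In Gata3, a zinc finger transcription factor gene, 400 bp 516 bp from a TSS (chr2:9810746-9811145) had 0.124 and 0.0159 in TDG KD, -0.00152 and 9.85e-06 in the controls, 0.0675 in bham359_362 and 0.00241 in bham470. At this narrow region bham480 was far above ear003. The 1100 bp region 4046 bp from Foxd3, a forkhead gene (chr4:99329409-99330508), had 42.7 CpGs per kb, 0.0536 and 0.0124 in TDG KD, -0.00291 and -0.00211 in the controls, and 0.0551 and 0.0307 in wild type. In Lhx8, a LIM homeobox gene (chr3:153976737-153979736), 3000 bp of mostly intron had 0.0208 and 0.0134 in TDG KD, -0.000547 and 0.00165 in the controls, and 0.0232 and 0.0117 in wild type. Foxd3 and Lhx8 were thus enriched in wild type in both libraries, and Gata3 in bham359_362 alone.

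In the immunoglobulin-type adhesion gene Dscam the 9300 bp intronic region (chr16:97223863-97233162) had 0.0150 and 0.0178 in TDG KD, 0.00105 and -0.00129 in the controls, and 0.0113 and -0.000518 in wild type, and a 1500 bp neighbor (chr16:97217163-97218662) had no wild-type enriched base. The regions in Efna5, an ephrin gene (chr17:63086896-63087095, 200 bp), and Nrxn3 (chr12:89975957-89977456, 1500 bp) were enriched over their whole length in bham359_362 and over none of it in bham470. Sema5a, a semaphorin gene, held regions of 1000 and 3000 bp that were enriched over 30.0% and 33.3% of their length in bham359_362. Mbd1 (chr18:74428001-74429200) had 0.0270 and 0.00964 in TDG KD, -0.00586 and -0.00128 in the controls, and 0.0223 and -0.00508 in wild type. Apart from Dscam's shorter region, each of these was enriched over part or all of its length in bham359_362. This is near the share of all KD-only regions with an enriched base in that library, 87.8%.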

How the data were processed

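5fC pulldown libraries from wild-type, siRNA control and TDG KD J1 cells (2 each) and 1 input were analysed. The authors aligned single-end reads to mm9 with BWA (0.6.1 in the submitters' processing notes), retained uniquely placed reads and called domains per replicate with rseg (bins of 100 bp, input as background). Deposited columns hold a score, the mean pulldown minus input reads per bin, not scaled for depth, and a second score that grows with width, which was not analysed further. Depths came from the library totals of the study. Without read counts per region no counting interval is given, and precision rests on 2 replicates.

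Consensus regions were intersections of replicates. The members, gene lists and named regions were chosen with earlier results of these data known. The named regions were the 10 widest, the 10 widest with a CGI, the 5 widest at a TSS, the 5 widest enriched in both wild-type libraries and the 5 widest without a wild-type enriched base, the 5 farthest from control domains, 3 on each side of the threshold, and those within 5 kb of a listed gene; not all are described, and some are not reported here. Domain values were averaged by length. CGIs (at least 200 bp, over 50% GC, CpG ratio over 0.6) were called from the mm9 sequence without repeat masking, and genes came from GENCODE M1, and listed names not found there were left out. Python 3.11.15, NumPy 2.4.6, SciPy 1.17.1, numba 0.67.0 and Matplotlib 3.10.9 were used, and the code was tested on simulated data. Wild-type differences used an exact two-sided sign-flip permutation test over libraries. Alternatives changed the rule, the overlap, the width, the scale, the annotation and the libraries. Repeats were not analysed, and the mitochondrial chromosome was left out.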

Additional observations from a re-analysis of the deposited data

How the results depend on the processing

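The number of KD-only regions (730, 2.12 Mb) depended on the rule. It was 2121 when only the control consensus removed regions, 461 without the lowest 25% of TDG KD domains of each library, and 1765 pieces (4.41 Mb) when control base pairs were cut out. Leaving out a library gave 1007 to 11659 regions: 11659 without bham480, 1557 without ear003, 1836 without bham479 and 1007 without ear001. Of the 730, 647 and 585 were still found without bham480 and without ear003. Padding control domains by 1000 bp, counting unconfident control domains, joining gaps, a minimum width, and leaving out chromosome 8 or the sex chromosomes gave 590 to 727. The mean wild-type difference in share stayed below 0 in all alternatives, from -36.3 to -3.15 points with both wild-type libraries, and was -36.5 without bham359_362 and -16.2 without bham470, while the excess difference was -0.0155 to -0.00570. When the whole length had to be enriched, -3.15 points was the mean of opposite signs. A stricter CGI definition gave 11.0% of regions with a CGI in place of 14.9%. On the deposited value the lower TDG KD library exceeded the higher control at 484 regions in place of 729. Genes of the lists with a region numbered 12 at 0 bp and 15 at 20 kb, in place of 13. Dropping domains listed at 0 and comparing within width classes were added after the data were seen. Of the 52 named regions, 29 remained without the lowest 25% of domains. No paired analysis was possible because the labels give the libraries no replicate numbers, and the contrast of TDG KD and control, which chose the regions, was not tested; its differences within each name prefix are given as a description. The causes were not tested. A rise in the control narrower than its domains cannot be seen in these values.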
